A study of Mus musculus with 17 samples.

Results

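The 6 genes described here encode the microglial receptor TREM2 and the proteins that carry or oppose its signal. They were listed by name and taken as the rows of the deposited count table whose Ensembl identifiers map to Trem2, Tyrobp, Treml2, Syk, Plcg2 and Inpp5d, which are 6 of the 42687 genes in the table. RNA was sequenced from microvessels isolated from the cerebral cortex of wild-type (WT) mice and of APP/PS1 mice, a transgenic amyloid model of Alzheimer's disease, at 10 to 11 months of age. All mice were injected intraperitoneally with 10 mg/kg of a peptide at intervals of 2 days over 2 weeks. The peptide was either gp91-ds-tat, an inhibitor of the superoxide-producing oxidase NOX2, or sgp91-ds-tat, the control. There were 5 libraries of WT with control peptide, 5 of WT with inhibitor, 2 of APP/PS1 with control peptide and 5 of APP/PS1 with inhibitor, so that 10 WT libraries stood against 7 APP/PS1 libraries. In the sample labels the genotype reads APP and the treatments read SC and NOX2; SC was taken as the control peptide and NOX2 as the inhibitor. All 4 groups thus received a peptide. The extraction protocol also speaks of surgery and of the cortex of 1 side, while nothing else in the labels describes an operation. The labels give neither the promoter of the transgenes nor the number of mice behind a library, so p-values measure the spread between libraries, which may in part be technical.

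TREM2 is a surface receptor of microglia and other myeloid cells that binds lipids, lipoproteins and amyloid. It has no signalling motif of its own and pairs with the adaptor TYROBP (DAP12), whose phosphorylated tyrosines recruit the kinase SYK. SYK activates phospholipase C gamma 2, encoded by Plcg2, and the PI3K pathway, while the lipid phosphatase SHIP1, encoded by Inpp5d, removes the PI3K product and restrains the signal. Treml2 encodes TREM-like 2, a neighbouring receptor of the same family. Several of these genes carry variants linked to the risk of Alzheimer's disease in humans, and in the brain most of them are expressed mainly in microglia.

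The receptor genes lie in 1 cluster on mouse chromosome 17, in the order Trem1, Trem3, Treml4, Treml2, Trem2 and Treml1, with B430306N03Rik between Treml2 and Trem2. In RefSeq assembly GRCm38.p6, Trem2 spans chr17:48346401-48352276 and Treml2 spans chr17:48299390-48312534. Tyrobp lies at chr7:30413782-30417582, next to Hcst, which encodes the related adaptor DAP10. Syk lies at chr13:52582610-52648792, Plcg2 at chr8:117498275-117635142 and Inpp5d at chr1:87620312-87720510. All 6 are on the plus strand, and 0 genes of the annotation GENCODE vM21 have exons that overlap theirs.

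Of the 6 genes, 4 matched a window in the table of RefSeq promoters used here, which run from 250 bases before to 50 bases after a transcript's start; the others were Tyrobp and Treml2. The windows of Trem2, Syk and Inpp5d are shown because these genes were higher in APP/PS1 libraries. Of the 2 windows of Syk, only the one that held a match is printed. Capitals mark matches to GAGGAA, a run bound by the ETS family to which the myeloid factor PU.1 belongs, to the longer run GAGGAAGT that contains it, or to TGANTCA, an AP-1 element, on either strand. The lines are Trem2 at chr17:48346151-48346450, the second window of Syk at chr13:52596632-52596931 and Inpp5d at chr1:87620062-87620361, all on the plus strand of GRCm38.p6.
Trem2: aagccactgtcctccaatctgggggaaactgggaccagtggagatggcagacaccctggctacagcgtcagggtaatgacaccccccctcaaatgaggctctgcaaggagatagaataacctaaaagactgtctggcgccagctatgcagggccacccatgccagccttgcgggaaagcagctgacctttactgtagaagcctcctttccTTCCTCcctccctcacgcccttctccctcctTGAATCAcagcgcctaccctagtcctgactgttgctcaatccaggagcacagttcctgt
Syk: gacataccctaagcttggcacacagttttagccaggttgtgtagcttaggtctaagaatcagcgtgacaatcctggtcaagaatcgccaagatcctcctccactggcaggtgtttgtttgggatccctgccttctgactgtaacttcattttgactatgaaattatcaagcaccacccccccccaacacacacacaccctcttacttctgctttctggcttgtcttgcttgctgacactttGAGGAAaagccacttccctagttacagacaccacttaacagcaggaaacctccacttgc
Inpp5d: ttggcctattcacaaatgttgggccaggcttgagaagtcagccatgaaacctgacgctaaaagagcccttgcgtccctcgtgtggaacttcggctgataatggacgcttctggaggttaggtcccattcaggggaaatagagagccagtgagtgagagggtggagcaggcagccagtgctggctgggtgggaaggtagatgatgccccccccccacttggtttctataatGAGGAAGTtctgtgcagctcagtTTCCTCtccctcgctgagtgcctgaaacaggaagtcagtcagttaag

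The Trem2 window held GAGGAA on the minus strand, read as TTCCTC in the line above, 40 bases before the start, and TGANTCA 9 bases before it. The Syk window held GAGGAA 9 bases before the start. The Inpp5d window held the longer run GAGGAAGT 20 bases before the start, which contains a GAGGAA, and another GAGGAA on the minus strand 3 bases after it. Of 32851 promoter windows of 300 bases, 28.3% held GAGGAA, 3.2% held GAGGAAGT and 7.81% held TGANTCA, counting both strands. The short run is thus common, and the matches describe the letters only. The other Syk window, at chr13:52583187-52583486, had a GC content of 72.0% and none of the motifs searched, and the Plcg2 window, at chr8:117498025-117498324, held the E-box CACGTG 20 bases before the start, a motif found in 7.15% of windows.

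Total counts were between 7316503 and 17862965 per library, with a median of 11342154. Levels are CPM, counts scaled to the size of the library after TMM scaling, and 3 counts, taken as the level up to which a gene is not told from 0, correspond to 0.174 to 0.39 CPM on that scale. This floor covers counting error only. The genotype labels were checked with App and Prnp, the second because transgenes of this kind are often placed under the Prnp promoter: App averaged 1598 CPM in WT and 2598 CPM in APP/PS1, and Prnp 423 and 1052 CPM. The labels name the cells as endothelium, pericytes and astrocyte endfeet. Summed endothelial markers were at 2050 to 4025 CPM and pericyte markers at 947 to 1637 CPM over the 17 libraries. Markers of neurons, at 2415 to 4096 CPM, and of microglia, at 198 to 422 CPM for 10 homeostatic genes, were present as well, so the preparations also held RNA of cells that the label does not name.

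Trem2 (ENSMUSG00000023992), the receptor, was higher in every APP/PS1 library than in every WT library. In WT with control peptide it was at 8.74, 9.74, 8.13, 8.58 and 11.1 CPM, and in WT with inhibitor at 7.95, 7.39, 7.09, 10.4 and 10.5 CPM. In APP/PS1 with control peptide it was at 19.1 and 26.7 CPM, and with inhibitor at 16.0, 28.7, 20.0, 22.1 and 27.8 CPM. The WT libraries thus ended at 11.1 CPM and the APP/PS1 libraries began at 16.0 CPM, with no overlap, while the libraries of the 2 peptides overlapped within each genotype. The mean was 8.96 CPM ± 1.39 (SD, n = 10) in WT and 22.9 CPM ± 4.89 (SD, n = 7) in APP/PS1, from 79 to 151 and from 184 to 389 counts per library. In the model of genotype and peptide, the log2 difference was 1.37 ± 0.13 (SE), a fold of 2.58 (edgeR quasi-likelihood test with Benjamini-Hochberg adjustment over 18753 genes, adjusted p = 3.79e-06). Its direction and call held under all 20 alternatives, with log2 differences from 1.30 to 1.44.

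Tyrobp (ENSMUSG00000030579), the adaptor through which TREM2 and several other myeloid receptors signal, was also higher in APP/PS1. WT libraries with control peptide were at 4.98, 2.20, 3.35, 5.18 and 2.62 CPM, and those with inhibitor at 3.55, 6.55, 4.58, 5.72 and 3.73 CPM. APP/PS1 libraries with control peptide were at 10.6 and 11.1 CPM, and those with inhibitor at 7.96, 11.1, 6.51, 9.44 and 13.9 CPM. The groups touched at a single point: 6 of 7 APP/PS1 libraries lay above all WT libraries, and the lowest, at 6.51 CPM, was just under the highest WT library, at 6.55 CPM. The mean rose from 4.25 CPM ± 1.39 (SD, n = 10) to 10.1 CPM ± 2.41 (SD, n = 7). The log2 difference was 1.22 ± 0.19 (SE; edgeR adjusted p = 0.00161), a fold of 2.32, and the call held under all 20 alternatives.

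Treml2 (ENSMUSG00000071068), the neighbouring receptor of the family, was near the floor of detection, and under it in 2 libraries, replicates 1 and 4 of WT with inhibitor, with 2 counts each. It had 2 to 17 counts in WT libraries and 4 to 24 in APP/PS1 libraries, which is 0.187 to 1.52 CPM and 0.363 to 1.97 CPM. Only 1 of 7 APP/PS1 libraries lay above all WT libraries, and the ranges overlapped almost throughout. The log2 difference of 0.58 ± 0.38 (SE; edgeR adjusted p = 0.903) was within the spread between libraries, and an interval of 2 SE runs from -0.18 to 1.34, which holds differences as large as that of Tyrobp. Of the 5 other receptors of the locus and family that were listed, Trem1, Trem3, Treml1 and Treml4 had too few counts to be tested. Trem1 reached at most 2 counts, Trem3 at most 3, Treml4 at most 5 and Treml1 at most 12 counts in any library. Treml6 is not analysed here.

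Syk (ENSMUSG00000021457), the kinase recruited by phosphorylated TYROBP, differed by less than the receptor but without overlap. WT libraries with control peptide were at 6.19, 6.18, 8.33, 8.31 and 6.38 CPM, and those with inhibitor at 7.76, 7.07, 8.35, 6.63 and 6.53 CPM. APP/PS1 libraries with control peptide were at 8.73 and 10.1 CPM, and those with inhibitor at 9.92, 9.60, 9.45, 10.2 and 11.0 CPM. All 7 APP/PS1 libraries were above all WT libraries, though the gap, from 8.35 to 8.73 CPM, was small. The mean was 7.17 CPM ± 0.923 (SD, n = 10) in WT and 9.84 CPM ± 0.695 (SD, n = 7) in APP/PS1, and the log2 difference was 0.44 ± 0.09 (SE; edgeR adjusted p = 0.0282), a fold of 1.36. The call was lost under 8 of 20 alternatives, with adjusted p-values from 0.00547 to 0.131 and log2 differences from 0.42 to 0.48. Leaving out any 1 of 7 libraries ended it: replicates 2, 4 and 5 of APP/PS1 with inhibitor (adjusted p = 0.0538, 0.0571 and 0.0641), replicate 2 of APP/PS1 with control peptide (0.131) or replicates 2, 4 and 5 of WT with inhibitor (0.0540, 0.0610 and 0.0838), as did testing without the filter on low counts (0.0566).

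Plcg2 (ENSMUSG00000034330), the phospholipase that turns the signal into calcium release and diacylglycerol, overlapped between the genotypes. WT libraries were at 12.9 to 26.1 CPM with a median of 21.8 CPM, and APP/PS1 libraries at 19.1 to 35.8 CPM with a median of 25.1 CPM. Of the 7 APP/PS1 libraries, 3 lay above all WT libraries: replicate 2 with control peptide and replicates 2 and 5 with inhibitor. The mean was 21.4 CPM ± 3.95 (SD, n = 10) in WT and 27.5 CPM ± 5.89 (SD, n = 7) in APP/PS1. The log2 difference of 0.36 ± 0.14 (SE) did not pass the test (edgeR adjusted p = 0.593).

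Inpp5d (ENSMUSG00000026288), which encodes the inhibitory phosphatase SHIP1, was higher in APP/PS1 by about as much as Syk. WT libraries with control peptide were at 25.6, 21.9, 24.4, 24.5 and 23.6 CPM, and those with inhibitor at 29.4, 23.9, 24.9, 28.1 and 20.4 CPM. APP/PS1 libraries with control peptide were at 26.4 and 38.0 CPM, and those with inhibitor at 34.5, 38.9, 27.8, 32.9 and 33.0 CPM. Of the APP/PS1 libraries, 5 of 7 lay above all WT libraries, and replicate 1 with control peptide and replicate 3 with inhibitor fell within the WT range. The mean was 24.7 CPM ± 2.64 (SD, n = 10) in WT and 33.1 CPM ± 4.69 (SD, n = 7) in APP/PS1, and the log2 difference was 0.41 ± 0.09 (SE; edgeR adjusted p = 0.0401), a fold of 1.33. The call was lost in 11 of 20 alternatives, each of them a library left out, with adjusted p-values over the alternatives from 0.00418 to 0.255. These libraries were replicates 1, 2, 4 and 5 of APP/PS1 with inhibitor (adjusted p = 0.0723, 0.110, 0.0669 and 0.0678), replicate 2 of APP/PS1 with control peptide (0.255), replicates 2, 3 and 5 of WT with inhibitor (0.0770, 0.0816 and 0.105) and replicates 2, 3 and 5 of WT with control peptide (0.0726, 0.0661 and 0.0689).

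**Figure D1:**
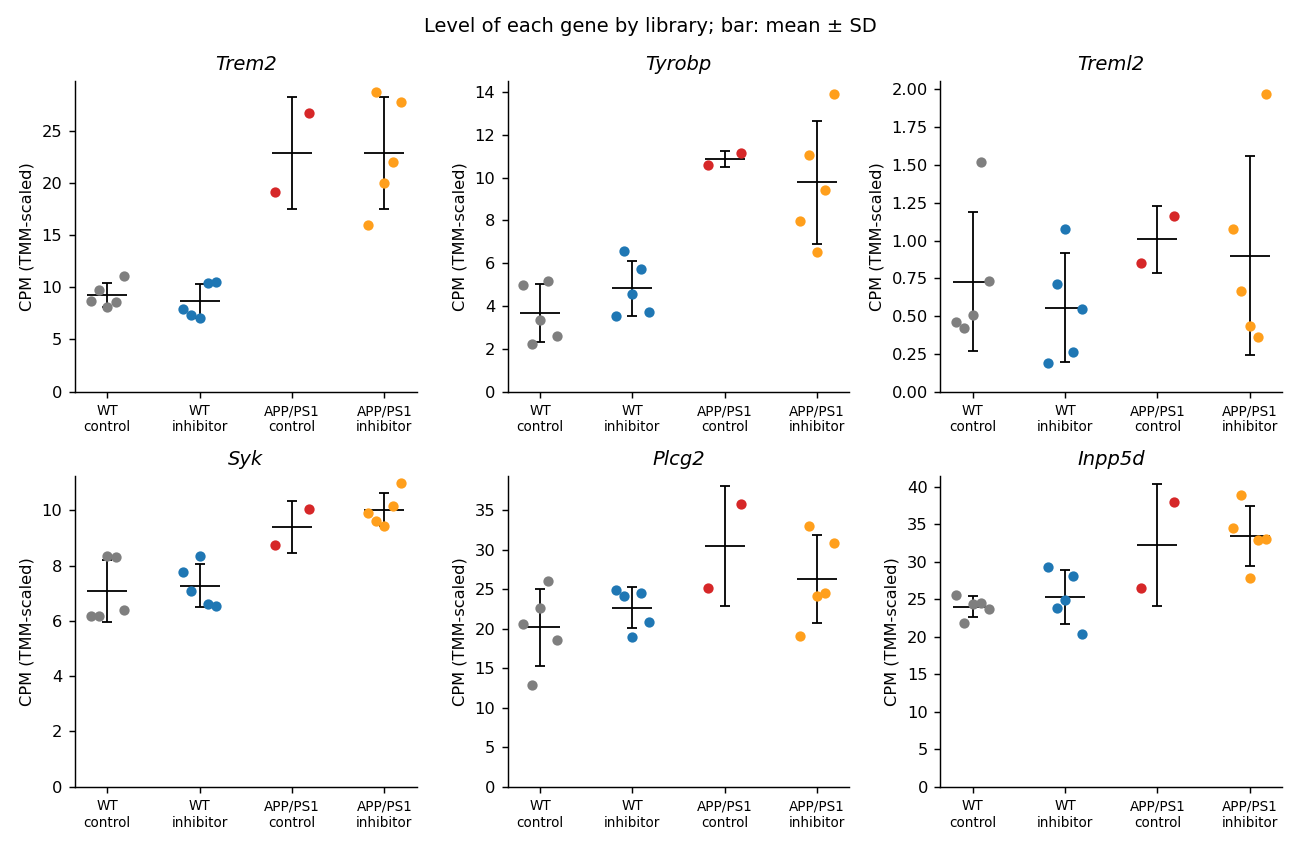
Level of each of the 6 genes in CPM (counts scaled to TMM-adjusted library size, linear axes from 0) in the 17 libraries, by genotype and peptide; points are libraries and bars are the mean ± SD of a group. All 7 APP/PS1 libraries of Trem2, at 16.0 CPM or more, and of Syk, at 8.73 CPM or more, are above the 10 WT libraries. The libraries of Treml2, Plcg2 and Inpp5d overlap, as do those of Tyrobp at a single point.

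Over both peptides, 4 of the 6 genes (Trem2, Tyrobp, Syk and Inpp5d) were thus called higher in APP/PS1, where 0.56% of the 18753 genes tested were called higher. All 6 genes had enough counts to be tested, Treml2 through a few libraries. The APP/PS1 libraries lay wholly above the WT libraries for 2 of the 6, Trem2 and Syk, and for 0.267% of all genes tested. The 6 genes were chosen with earlier results of these data known, so these shares are no independent evidence. The median log2 difference of the 6 genes was 0.51, and that of all genes tested was 0.00. In these bulk preparations, more cells of a type and more RNA of a gene per cell cannot be told apart.

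Per kilobase of the principal transcript, the receptor and its adaptor stood highest. In WT, Trem2 was at 8.23 ± 1.28 and Tyrobp at 7.53 ± 2.46 CPM per kilobase (SD, n = 10), which did not differ beyond their spread, followed by Inpp5d at 4.99 ± 0.534 and Plcg2 at 4.98 ± 0.918, again within their spread. Syk, at 1.34 ± 0.172, and Treml2, at 0.307 ± 0.191, were lowest. In APP/PS1 the order was the same, with Trem2 at 21.0 ± 4.50, Tyrobp at 17.9 ± 4.27, Inpp5d at 6.70 ± 0.950, Plcg2 at 6.40 ± 1.37, Syk at 1.83 ± 0.130 and Treml2 at 0.444 ± 0.261 CPM per kilobase (SD, n = 7). The place of Trem2 depends on the length used: its principal transcript has 1088 bases, but all its annotated exons together cover 4946 bases, and per kilobase of that union it was at 1.81 in WT, below Tyrobp at 6.36, Plcg2 at 4.98 and Inpp5d at 3.24.

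The genotypes were also compared under each peptide separately. With control peptide, 1 of the 6 genes was called, Trem2, with a log2 difference of 1.31 ± 0.21 (SE; edgeR adjusted p = 0.0153), and 0.0533% of all genes tested were called higher. Tyrobp differed by 1.54 ± 0.30 (adjusted p = 0.0830), Plcg2 by 0.59 ± 0.22, Inpp5d by 0.42 ± 0.15, Syk by 0.41 ± 0.16 and Treml2 by 0.46 ± 0.62, the last 4 with adjusted p-values that round to 1.00. With inhibitor, Trem2 was again the only one of the 6 called, with a log2 difference of 1.41 ± 0.17 (SE; edgeR adjusted p = 0.000403), and 0.176% of all genes tested were called higher. Tyrobp differed by 1.02 ± 0.24 (adjusted p = 0.173), Syk by 0.46 ± 0.12 (0.306), Inpp5d by 0.41 ± 0.12 (0.510), Plcg2 by 0.22 ± 0.17 and Treml2 by 0.66 ± 0.51. The call of Trem2 with control peptide was lost in 3 of 21 alternatives: on the libraries of these groups alone (adjusted p = 0.0565), without replicate 2 of APP/PS1 with control peptide (0.950) and without replicate 3 of WT with control peptide (0.0653). Over the 21 alternatives its adjusted p lay between 5.73e-05 and 0.950. Tyrobp passed the threshold in 4 of 21 alternatives with control peptide, among them DESeq2 (0.00283) and no low-count filter (0.0266), over a range from 0.00283 to 0.950, and with inhibitor it passed by DESeq2 (0.0162), over a range from 0.0162 to 0.541.

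None of the 6 genes was called for the inhibitor peptide in any of the 4 comparisons made. In WT, where 0 of 6 were called and 0.0% of all genes, Trem2 differed by -0.10 ± 0.17 (log2, inhibitor minus control peptide, SE), Tyrobp by 0.37 ± 0.26, Syk by 0.04 ± 0.12, Plcg2 by 0.17 ± 0.17, Inpp5d by 0.07 ± 0.12 and Treml2 by -0.32 ± 0.53. In APP/PS1, where again 0 of 6 and 0.0% of all genes were called, Trem2 averaged 22.9 CPM ± 5.37 (SD, n = 2) with control peptide and 22.9 CPM ± 5.35 (SD, n = 5) with inhibitor, a log2 difference of 0.00 ± 0.21 (SE). An interval of 2 SE for Trem2 runs from -0.42 to 0.43, and differences within it are not excluded by these libraries. That interval is not a limit of detection, because a call also requires passing the adjustment over all genes tested. For genotype, Tyrobp was not called at 1.02 ± 0.24 with inhibitor (edgeR adjusted p = 0.173). Nor was it called at 1.54 ± 0.30 with control peptide (edgeR adjusted p = 0.083). For the inhibitor in APP/PS1, Tyrobp differed by -0.15 ± 0.30, Syk by 0.10 ± 0.16, Plcg2 by -0.21 ± 0.22, Inpp5d by 0.06 ± 0.16 and Treml2 by -0.11 ± 0.61. Over both genotypes 0 of 6 and 0.0% of all genes were called, and the differences of the 6 lay between -0.23 for Treml2 and 0.14 for Tyrobp. The interaction, the inhibitor effect in APP/PS1 minus that in WT, was called for 0 of 6 and 0.0% of all genes, and was 0.10 ± 0.27 for Trem2, -0.52 ± 0.39 for Tyrobp and -0.37 ± 0.28 for Plcg2. At an unadjusted p under 0.05, edgeR found 252 genes in WT, 338 in APP/PS1, 396 over both genotypes and 158 for the interaction, none of the 6 among them, and DESeq2 found 0 genes after adjustment in each of these comparisons.

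**Figure D2:**
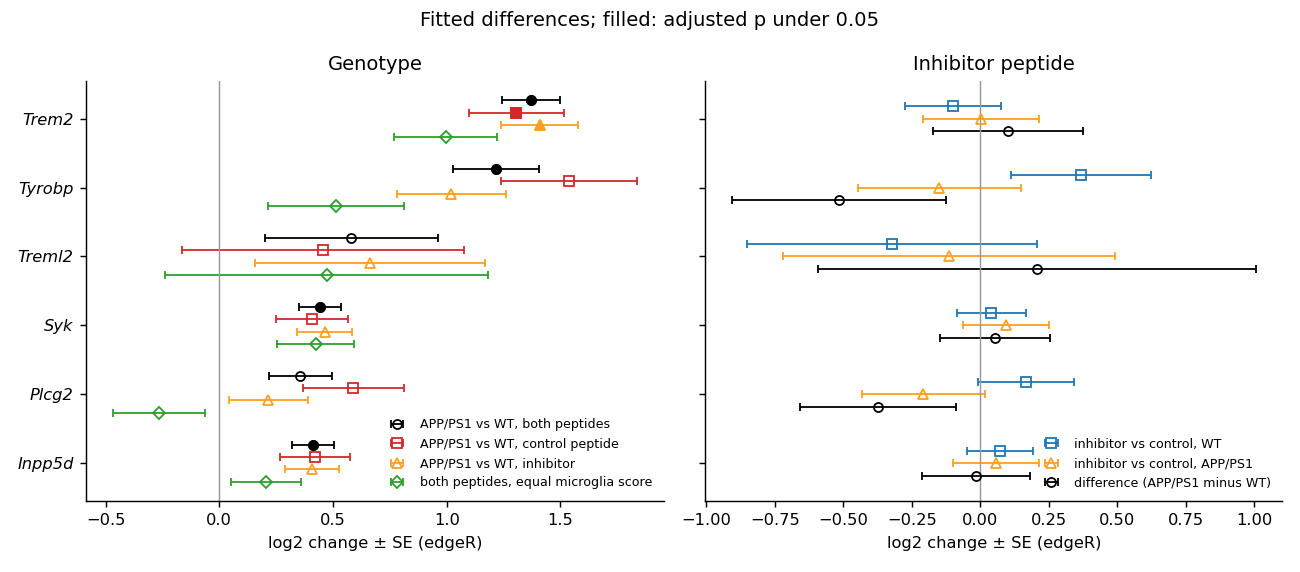
Fitted log2 differences ± SE (edgeR) of the 6 genes, for genotype in the left panel and for the inhibitor peptide in the right panel, with an adjusted p under 0.05 shown as a filled symbol. Filled symbols appear for Trem2 in 3 genotype comparisons and for Tyrobp, Syk and Inpp5d over both peptides, and in the right panel 0 symbols are filled.

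Microglia markers were higher in APP/PS1 libraries, alongside these genes. Of 10 homeostatic microglia markers, 4 were called higher in APP/PS1 and 0 lower, among them P2ry12 (log2 difference 0.66, edgeR adjusted p = 0.0365), and the median was 0.69. The summed level of the 10 markers was 198 to 270 CPM in WT and 261 to 422 CPM in APP/PS1. Of 8 pan-myeloid markers, 6 were called higher and 0 lower, with sums of 106 to 170 CPM against 172 to 310 CPM. Other cells that express TYROBP, SYK or SHIP1 were followed too. Perivascular macrophage markers overlapped, at 40.7 to 115 CPM in WT and 43.5 to 84.9 CPM in APP/PS1, with 0 of 7 called. Neutrophil markers summed to 9.36 to 28.8 CPM in WT and 22.4 to 35.3 CPM in APP/PS1, with 1 of 6 tested called higher. That gene, Csf3r, which encodes a receptor of granulocyte growth factor, made up most of the sum, at 11.8 CPM in WT and 24.4 CPM in APP/PS1 on average (log2 difference 1.04, edgeR adjusted p = 4.27e-05). The other tested markers lay between -1.16 for Cxcr2 and 1.27 for Ngp, and Ly6g was at 0 in 15 of 17 libraries. B cell markers were at 0.347 to 3.39 CPM against 0.817 to 2.44 CPM, and T and NK cell markers at 0.209 to 1.52 CPM against 0.543 to 1.70 CPM. Of 5 astrocyte markers, 1 was called higher and all 5 had differences above 0: Gfap, an intermediate filament gene raised in reactive astrocytes, was at 55.3 CPM in WT and 129 CPM in APP/PS1 (log2 difference 1.21, edgeR adjusted p = 0.000125). The astrocyte markers summed to 2742 to 4041 CPM in WT and 2848 to 4750 CPM in APP/PS1. The part of neutrophils, lymphocytes and astrocytes in the differences was not tested.

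A microglia score, the mean log2 CPM of the 10 homeostatic markers, was therefore added to the model of genotype and peptide; none of the 6 genes is in the score. The score averaged 4.22 in WT (3.94 to 4.52) and 4.85 in APP/PS1 (4.45 to 5.13), so it moves with genotype and the fit compares the genotypes mostly where they barely overlap. At equal score, 0 of the 6 genes were called higher, against 0.016% of all genes tested. The genotype difference of Trem2 was 1.00 ± 0.22 at equal score (SE; edgeR adjusted p = 0.227) in place of 1.37, that of Tyrobp 0.51 ± 0.30 in place of 1.22, and that of Inpp5d 0.21 ± 0.16 in place of 0.41. Plcg2 was at -0.27 ± 0.20 in place of 0.36, whereas Syk, at 0.42 ± 0.17, hardly moved from 0.44. With a score of the 8 pan-myeloid markers instead, Trem2 was called at equal score (log2 difference 1.16, adjusted p = 0.0382). With that score 122 of the 18753 genes tested were called, 16 of them higher. Over the alternatives for Trem2 the adjusted p lay between 0.0382 and 0.386. The slope on the homeostatic score, the log2 change per unit of score within genotype and peptide, was called for 0 of 6 genes and for 0.0747% of all genes upward. The slope was 0.95 ± 0.26 for Plcg2 (adjusted p = 0.0924), 1.09 ± 0.40 for Tyrobp (0.143), 0.56 ± 0.29 for Trem2 (0.274), 0.32 ± 0.20 for Inpp5d and 0.03 ± 0.22 for Syk. On the pan-myeloid score, Tyrobp (1.49, adjusted p = 0.00425) and Plcg2 (0.82, 0.0390) passed, among 1317 of the 18753 genes tested. Plcg2 also passed on the homeostatic score without replicate 1 of WT with control peptide (1.07, 0.0495), where 326 of all genes passed. Over the alternatives of these slopes the adjusted p lay between 0.00425 and 0.374 for Tyrobp and between 0.0390 and 0.274 for Plcg2. With a library left out, between 0 and 561 of all genes were called for the slope, in place of 18.

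Markers of the vessel wall moved with the homeostatic score as well. All 6 endothelial markers had slopes above 0, from 0.79 to 1.12 with a median of 0.83, and all 5 pericyte markers had slopes from 0.48 to 1.33 with a median of 0.76, while 0 of either list were called. At equal score, the genotype differences of the endothelial markers ran from -0.90 to -0.55 with a median of -0.58, and those of the pericyte markers from -0.74 to -0.24 with a median of -0.53, in place of medians of -0.05 and 0.01 without the score. Whether the slopes of the 6 genes and their differences at equal score measure microglial RNA alone was not tested. Nor was the part of the vessel markers tested, in them or in the relations within a genotype that follow.

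The relation of each gene to the score was also examined within each genotype. Over the 7 APP/PS1 libraries, Trem2 and the score had a Pearson r of 0.93 (two-sided exact permutation p = 0.00456, adjusted over 12 relations p = 0.0274) and a Spearman rho of 0.86 (p = 0.0238, adjusted p = 0.0952), and r was 0.845 without the 2 libraries farthest from the median score. Plcg2 had an r of 0.94 (exact permutation p = 0.00397, adjusted p = 0.0274; rho 0.86, p = 0.0238, adjusted p = 0.0952; r without 2 libraries 0.94). Tyrobp had an r of 0.86 (exact permutation p = 0.0123, adjusted p = 0.0492; rho 0.93, p = 0.00675, adjusted p = 0.0810; r without 2 libraries 0.85). Syk, at an r of 0.30 and rho of 0.36 (exact permutation p = 0.514 and 0.444, adjusted 0.561 and 0.535), and Inpp5d, at 0.39 and 0.36 (0.375 and 0.444, adjusted 0.500 and 0.535), did not pass, nor did Treml2, at 0.43 and 0.46 (0.327 and 0.302, adjusted 0.500 and 0.535). Over the 10 WT libraries, where the score covers a narrower range, r was -0.25 for Trem2 (permutation p = 0.476, adjusted p = 0.561; rho -0.25, p = 0.491, adjusted p = 0.536) and between -0.41 for Treml2 and 0.42 for Plcg2. No adjusted p was under 0.5 for r or under 0.339 for rho in WT. These relations were examined after the data had been seen, and neither the difference between the genotypes nor that between the genes was tested. The share of all genes with as high an r in the same libraries was not computed. For the slope on the score, edgeR gave 3905 of the 18753 genes tested an unadjusted p under 0.05, in either direction.

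**Figure D3:**
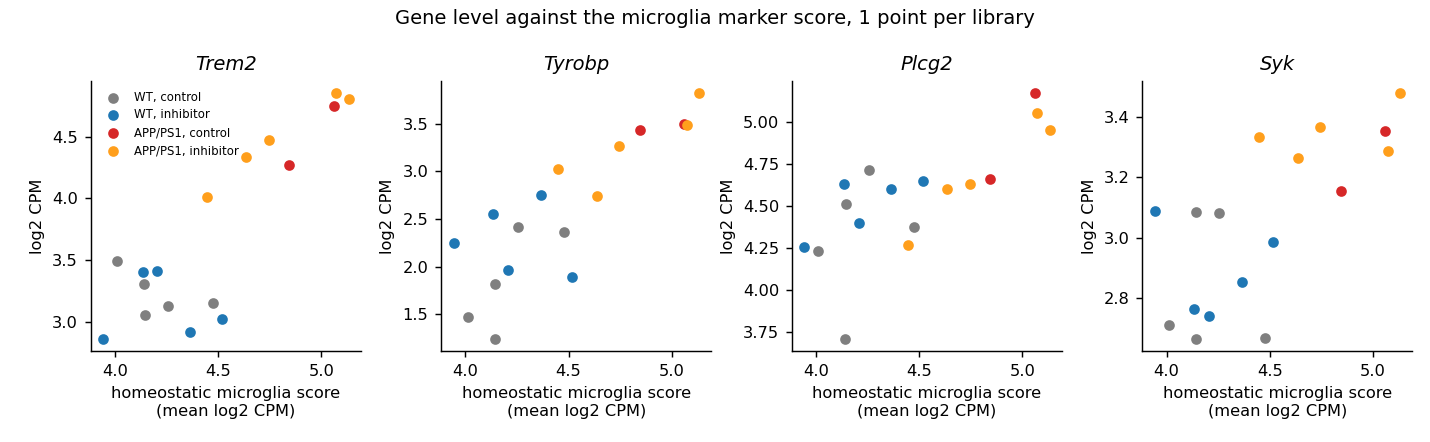
Level of Trem2, Tyrobp, Plcg2 and Syk (log2 CPM, vertical axes) against the homeostatic microglia score (mean log2 CPM of 10 markers, horizontal axes), with 1 point per library coloured by genotype and peptide. Trem2, Tyrobp and Plcg2 climb with the score across the 7 APP/PS1 libraries (r of 0.93, 0.86 and 0.94), and r was 0.30 for Syk; the difference between the genes was not tested.

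Counts of Trem2 relative to those of most genes that act after it were higher in APP/PS1 libraries. The ratio of Trem2 to Plcg2 counts had a log2 difference of 0.98 between APP/PS1 and WT, a fold of 1.97, and 6 of 7 APP/PS1 libraries lay above all WT libraries (two-sided exact permutation over 19448 splits, p = 0.000257, adjusted over 5 ratios p = 0.000514). Plcg2 had 2.46 ± 0.643 counts (SD, n = 10) for each count of Trem2 in WT and 1.20 ± 0.0923 (SD, n = 7) in APP/PS1, a ratio that ran from 1.32 to 3.26 in WT and only from 1.11 to 1.34 in APP/PS1. The ratio of Trem2 to Inpp5d was higher by 0.92, a fold of 1.89 (exact permutation p = 0.000206, adjusted p = 0.000514), and that of Trem2 to Syk by 0.88, a fold of 1.83 (exact permutation p = 0.000309, adjusted p = 0.000514), each with 6 of 7 APP/PS1 libraries above all WT libraries. The ratio of the receptor to its adaptor differed by less than the spread between libraries: Trem2 had 2.41 ± 1.12 counts per count of Tyrobp in WT (SD, n = 10) and 2.31 ± 0.431 in APP/PS1 (SD, n = 7), a log2 difference of 0.06 (exact permutation p = 0.818, adjusted p = 0.818). With Treml2 the log2 difference was 0.82 (exact permutation p = 0.0675, adjusted p = 0.0843), on very few Treml2 counts. Counts of the phosphatase gene relative to the kinase gene lay within their spread, with 3.48 ± 0.487 counts of Inpp5d per count of Syk in WT and 3.36 ± 0.427 in APP/PS1. The ratios were chosen after the data had been seen. They largely restate the differences in level given above, so their p-values are no further evidence. The median log2 difference of all genes tested was 0.00, and ratios of Trem2 to genes outside the 6 were not examined. A ratio within a library shows unequal change and not which gene changed. As for the levels, the mix of cells and the RNA per cell cannot be told apart in it.

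**Figure D4:**
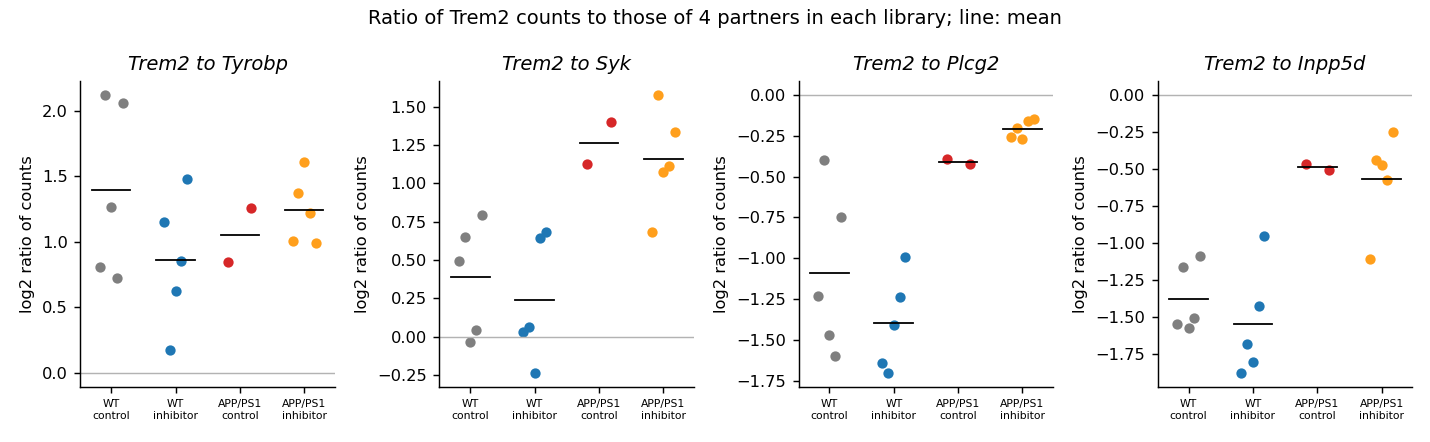
Log2 ratio of Trem2 counts to those of Tyrobp, Syk, Plcg2 and Inpp5d in each of the 17 libraries by genotype and peptide, with the group mean as a line. The APP/PS1 libraries overlap the WT libraries for Tyrobp (log2 difference 0.06) and stand above nearly all of them for Syk, Plcg2 and Inpp5d (0.88, 0.98 and 0.92).

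The genes whose levels followed each member most closely were taken by Pearson r of log2 CPM over the 17 libraries, among genes with a mean of at least 1 CPM. These values are descriptions, since the libraries share the genotype difference, and r after removing the group means is given beside each. For Trem2 the closest were Mpeg1 (r = 0.94, within groups 0.53), Itgax (0.94, within groups 0.55) and Hpgds (0.94, within groups 0.64). Next were Clec7a (0.932, within groups 0.415) and Lamr1-ps1 (0.931, within groups 0.11). For Tyrobp the closest were Dock8 (0.94, within groups 0.75) and Tgfbr1 (0.94, within groups 0.82). Inpp5d was closest to Arhgap30 (0.89, within groups 0.85), Plcg2 to Bmp2k (0.88, within groups 0.89) and Cyba (0.88, within groups 0.84), and Syk to Cerk (0.90, within groups 0.64). Treml2, at its low counts, had no gene above 0.81, the value for Kif5b. Among the members, Trem2 and Tyrobp had an r of 0.79 that fell to 0.11 within groups, and Trem2 and Syk an r of 0.74 that was -0.26 within groups. Tyrobp and Plcg2 had an r of 0.77 and 0.66 within groups, Plcg2 and Inpp5d 0.68 and 0.53, and Treml2 and Syk 0.47 both over all libraries and within groups.

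The wider pathway was followed through 9 lists of genes around the receptor. Of 91 genes listed, 78 were tested, and 10 of them were called higher and 0 lower in APP/PS1 over both peptides, which is 12.8% against 0.56% of all genes tested. The lists were chosen with earlier results of these data known, so this contrast is no independent evidence. The median log2 difference of the 78 genes was 0.10. Of 3 ligands tested, 0 were called: Apoe, the lipoprotein that TREM2 binds, was at 544 CPM in WT and 651 CPM in APP/PS1 (log2 difference 0.26, edgeR adjusted p = 0.827), and Clu at 549 and 581 CPM. Of 8 genes of the proteases that shed and cleave TREM2, 0 were called, with log2 differences from -0.13 for Psen2 to 0.16 for Adam17.

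Of 5 tested adaptors and partner receptors, 2 were called higher. Siglech, a microglial lectin that signals through TYROBP, was at 11.9 CPM ± 2.05 in WT (SD, n = 10) and 19.1 CPM ± 2.07 in APP/PS1 (SD, n = 7), a log2 difference of 0.72 (edgeR adjusted p = 0.000676). Csf1r, the receptor of the microglial growth factor CSF1, differed by 0.63 (adjusted p = 0.00933). Fcer1g, which encodes the other ITAM adaptor that couples receptors to SYK, differed by 0.73 and did not pass (adjusted p = 0.0633), though it passed in 5 of 20 alternatives, among them DESeq2 (0.00941) and no low-count filter (0.0344), over a range from 0.00941 to 0.226. Of 9 kinases, 1 was called: Btk, which phosphorylates phospholipase C gamma 2, at 0.87 (adjusted p = 0.0148). The calls of Csf1r and Btk were lost without replicate 2 of APP/PS1 with control peptide (adjusted p = 0.071 and 0.120, the highest of the 20 alternatives, whose lowest values were 0.000211 and 0.00353). The T cell kinase Zap70, the relative of Syk, was at -0.32 (adjusted p = 0.823).

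Of 12 scaffolds and exchange factors, 4 were called higher. They included Blnk and Lcp2, which hold SYK and the phospholipases together, at 0.84 (edgeR adjusted p = 0.00069) and 0.73 (0.00304), and Sh3bp2 at 0.64 (0.00471). In the PI3K and AKT list 0 of 13 were called, and the leading gene was the myeloid subunit gene Pik3cg at 0.50 (adjusted p = 0.0550). Pik3cg passed in 3 of 20 alternatives: by DESeq2 (0.0148), without replicate 1 of APP/PS1 with control peptide (0.0436) and without replicate 1 of WT with control peptide (0.00742), over a range from 0.00742 to 0.252. Of 15 genes of the phospholipase branch, 1 was called, Card9 at 0.70 (adjusted p = 0.0481), and that call was lost in 17 of 20 alternatives. The widely expressed relative Plcg1 was at 165 CPM in both genotypes, a log2 difference of -0.02 (adjusted p = 0.997). Of 13 tested inhibitory phosphatases and receptors, 2 were called higher: Ptprc, which encodes the leukocyte phosphatase CD45, at 1.03 (adjusted p = 4.69e-05) and Cd33, which encodes a receptor for sialic acid, at 0.50 (adjusted p = 0.000511). The broadly expressed SHIP2 gene Inppl1 was at -0.01 (adjusted p = 0.999). At equal microglia score, 0 of the 78 genes were called, where 4 of the 18753 genes tested were called. At an unadjusted p under 0.05 in either direction, edgeR found 15 of the 78 and 2395 of all genes there. In each comparison of the peptides, 0 of the 78 and 0 of all genes were called.

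Genes that microglia around amyloid plaques raise formed a separate list of 20, of which 7 were called higher and 0 lower. Cst7, which encodes cystatin F, was at 0 to 0.449 CPM in WT, near or under the floor, and at 6.17 to 10.6 CPM in APP/PS1 (edgeR adjusted p = 1.98e-08); no fold is given because the fitted value depends on the prior count at such levels. Clec7a, the beta-glucan receptor gene that also signals through SYK, differed by 2.56 and Itgax by 3.14. The other 13 did not pass, among them Spp1 at -0.15, Axl at 0.16 and Ctsb at 0.13, and the median of the list was 0.35. Lists of this kind were known to move in these libraries when they were chosen, so their counts are no independent evidence.

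**Figure D5:**
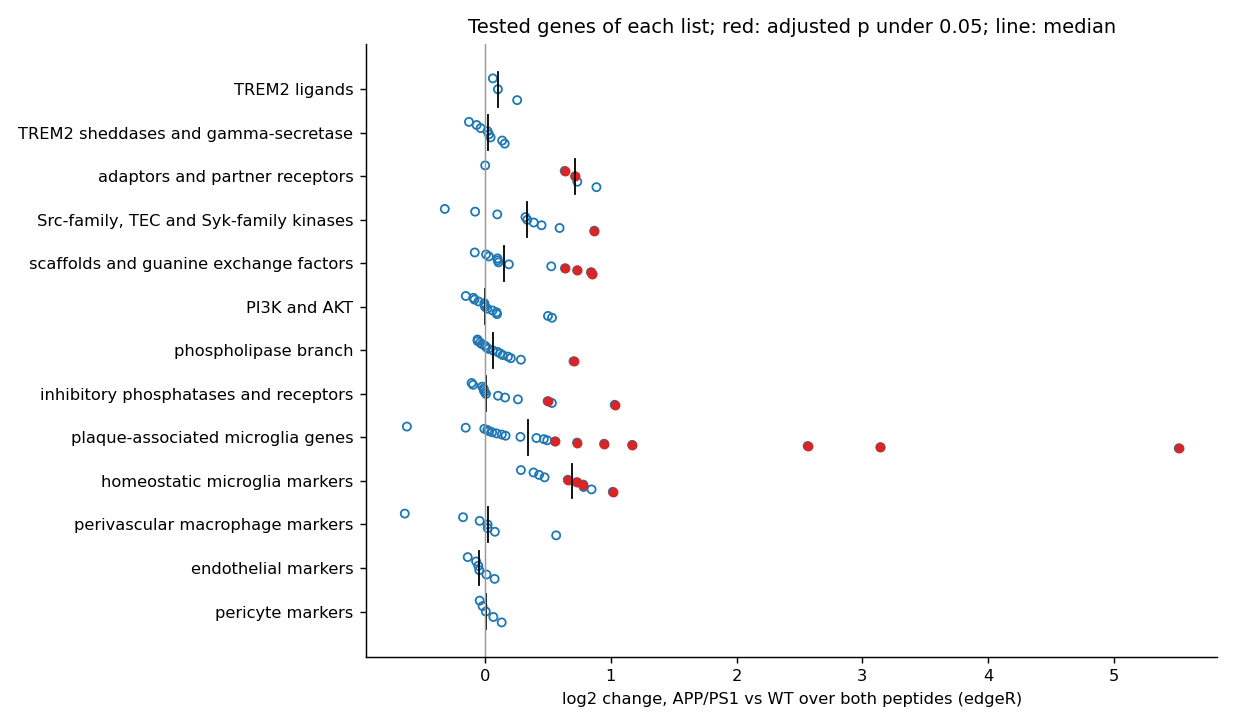
Log2 difference between APP/PS1 and WT over both peptides (edgeR, horizontal axis) for the tested genes of each list, with 1 point per gene, red where the adjusted p was under 0.05, and the median of the list as a line. Red points number 10 in the pathway lists above the plaque-associated list, most of them between 0.5 and 1.0. The TREM family list had 0 genes tested and is not drawn. The 3 genes farthest to the right, Cst7, Itgax and Clec7a, belong to the plaque-associated list.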

How the data were processed

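RNA-seq of 17 cortical microvessel libraries was analysed from the table of raw counts per Ensembl gene that the authors deposited, a table of whole numbers with a different total in each library. The submitters' processing notes name cutadapt, STAR, HTSeq and DESeq2 and the builds mm10 and GRCh37, without versions or roles; handling of reads that match several genes is not given in the sources used here. The table held 20 further columns that match no sample, and these were not used. Of 42687 identifiers, 42250 had a symbol in GENCODE vM21 and 437 did not. Among 136 pairs of libraries, 0 held identical values, and within-group pairs differed by a chi-square per degree of freedom of 5.04 to 84.3, so 0 pairs were alike to within counting error and n is the number of libraries.

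Genes were filtered with filterByExpr, which left 18753, scaled by TMM and tested with the quasi-likelihood F test of edgeR 4.0.16 (R 4.3.3), two-sided, with Benjamini-Hochberg adjustment over all genes tested and a threshold of 0.05. All 17 libraries entered each model: genotype plus peptide, 1 mean per group, or genotype plus peptide plus the microglia score. The filter keeps a gene that is high in a few libraries only. Levels on the log2 scale have a prior count of 2, and ratios of counts a pseudocount of 0.5. Standard errors were derived from the estimate and its F statistic. Alternatives were DESeq2 size factors, the DESeq2 1.42.0 Wald test, no low-count filter, only the groups compared, a pan-myeloid score, and each library left out. The scripts were tested on simulated data.

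The members and gene lists were chosen with earlier results of these data known. Named were the 6 members, App and Prnp, the relatives Plcg1, Inppl1, Zap70 and Fcer1g, up to 3 called genes of each pathway list with the smallest adjusted p for genotype (or the leading gene where none was called), and the genes most like a member by Pearson r. Clu, Psen2, Spp1, Axl, Ctsb, P2ry12, Ly6g, Csf3r, Cxcr2, Ngp and Gfap were named after their values were seen. Motifs were searched as exact letters on both strands of RefSeq windows (GRCm38.p6).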

Additional observations from a re-analysis of the deposited data

Results flagged for a closer look

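Treml2 in replicate 4 of WT with control peptide stood apart from the other 4 libraries of its group. It was at 1.52 CPM, from 17 counts, against 0.419 to 0.732 CPM in the others, and its gap to the nearest library was 0.715 of the range of the group, just above the critical value of Dixon's test for 5 values, 0.71. Over the 6 genes, 18 groups were examined in this way, of which chance alone would mark about 1 in 20.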

How the results depend on the processing

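Of 1524 recomputed single-gene differences and slopes, 1466 kept their direction and side of the threshold or were called under neither setting, 41 lost the call, 17 gained one and 0 called values changed sign; of 1105 called under neither setting, 51 changed sign. The number of the 6 genes called for genotype over both peptides was between 2 and 4 with a library left out, and was 2 without replicates 2, 4 or 5 of APP/PS1 with inhibitor, replicate 2 of APP/PS1 with control peptide or replicates 2 or 5 of WT with inhibitor; the cause was not tested. With control peptide the number was 2 by DESeq2, 2 without the low-count filter and 0 on the compared groups alone, where fewer libraries enter, and 0 to 2 with a library left out (0 without replicate 2 of APP/PS1, which leaves a lone library assumed to vary like the other groups, or replicate 3 of WT; 2 without replicates 1 or 4 of WT). With inhibitor it was 2 by DESeq2. With the pan-myeloid score it was 1 at equal score and 2 for the slope, and for the slope 0 to 1 with a library left out, 1 without replicate 1 of WT with control peptide. The number of homeostatic markers called was 2 to 6 with a library left out, and 2 without replicates 2 or 5 of APP/PS1 with inhibitor, replicate 2 of APP/PS1 with control peptide or replicate 5 of WT with inhibitor. The log2 difference of the Trem2 to Treml2 ratio was 0.925 with a pseudocount of 2, then past the threshold, and 0.65 to 0.978 with a library left out; it passed without replicates 1 or 4 of WT with inhibitor or replicate 5 of APP/PS1 with inhibitor. These ratio settings, and the recounts of the lists, were chosen after seeing the data. Genes called over all genes moved by more than 1.5 times: by DESeq2 from 110 to 182 for genotype over both peptides, from 10 to 45 with control peptide and from 34 to 61 with inhibitor; with the pan-myeloid score from 4 to 122 at equal score and from 18 to 1317 for the slope; and without the filter from 18 to 7 for the slope. With a library left out, the count over both peptides was 70 to 123, past 1.5 times only without replicate 2 of APP/PS1 with control peptide (70). With control peptide it was 4 to 17, and moved that far without replicate 1 (6) or 2 (4) of APP/PS1 or replicate 3 (6) or 4 (17) of WT. With inhibitor it was 15 to 38, and moved that far without replicate 2 (15) or 4 (17) of APP/PS1 or replicate 1 (21), 3 (19) or 5 (15) of WT. At equal score it was 2 to 5, and 2 in 10 of 17 cases. For the slope it was 0 to 561, and moved past 1.5 times in 16 of 17 cases, with 561 without replicate 3 of WT with inhibitor, 326 without replicate 1 of WT with control peptide and 150 without replicate 4 of that group. No paired analysis was possible because the replicate numbers follow the order of the samples and pair no libraries. Depth limits Treml2 most. The 2 libraries of APP/PS1 with control peptide limit the genotype comparison with control peptide, the inhibitor comparison in APP/PS1 and the interaction.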

Other observations

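Relative to the microglia score of the same library, Trem2 was at -1.50 to -0.52 in WT and at -0.58 to -0.22 in APP/PS1 (log2 CPM minus score), so that 1 WT library, replicate 5 with control peptide, reached the APP/PS1 range. Syk on the same scale was at -1.81 to -0.85 in WT and -1.79 to -1.11 in APP/PS1, and Plcg2 at -0.44 to 0.49 and -0.18 to 0.11. Hcst, which encodes the adaptor DAP10 and neighbours Tyrobp, had 1 to 8 counts per library and was not tested. Klrk1, which encodes the DAP10-coupled receptor NKG2D, had 0 to 7 counts, with 4 libraries at 0, and the receptor genes Sirpb1a, Sirpb1b and Sirpb1c had at most 4 counts in any library.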
